A study of Mus musculus with 12 samples.

Results

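Complement is an innate defence system of serum proteins, and 7 genes that encode its components or close relatives of them were followed in mouse mammary tumour cells: C3, C4b, C1s1, C1ra, Cfb, Serping1 and C1rl. Their rows were found in the deposited count table by gene symbol, and they are 7 of its 55573 genes. Of the 7 genes, 6 passed the filter on low counts and were among the 13836 genes tested, and Cfb did not pass it. A gene can pass this filter through the treatment in which it is high, so passing it says nothing about a response.

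RNA was sequenced from tumourspheres, free-floating colonies grown without attachment, of the lines A1005, A1129 and A1471, which were derived from spindloid (spindle-shaped) mammary tumours of mice. For 24 h the spheres received DMSO as the vehicle, Crizotinib, which inhibits the Met kinase, PD173074, which inhibits FGF receptor kinases, or both drugs (Combo in the labels), with each inhibitor at 1 µM. Each treatment had 1 library from each line, which gave 12 libraries and n = 3 lines per treatment. The experiment asked how gene expression responded to inhibition of Met, of the FGF receptors and of both. All groups shared the genotype MMTV-Metmt;Trp53fl/+;Cre, in which the mouse mammary tumour virus promoter drives an activated Met in the mammary gland and Cre recombinase deletes a floxed Trp53 allele. Each line came from a separate breast tumour, and all were kept in serum-free sphere medium with EGF, basic FGF, insulin, heparin and hydrocortisone. The replicates are these lines, so the p-values of the unpaired fit measure the spread between 3 tumour lines. Where the line enters the fit as a block, differences in level between lines are taken out. The p-values of that fit measure the spread that remains, which is that of the response among the 3 lines.

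As background, complement works as a cascade of proteases in blood and tissue fluid. In the classical pathway, the proteases C1r and C1s ride on the recognition protein C1q. C1s cleaves C4 and C2, which form an enzyme that cleaves C3. Factor B, encoded by Cfb, forms the C3-cleaving enzyme of the alternative pathway, which amplifies C3 cleavage. C3 is the central component on which all pathways converge, and its fragments coat targets and signal to leukocytes. C1 inhibitor, encoded by Serping1, blocks C1r and C1s, and C1rl is a protease related to C1r. The liver makes most circulating complement, and epithelial cells, fibroblasts and macrophages can also make components, often in response to interferons and to cytokines of the interleukin 6 and interleukin 1 families.

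The genes lie in 4 places of the GRCm38 (mm10) assembly. C3 (ENSMUSG00000024164) is at chr17:57203970-57228136 on the minus strand, with 42 exons after merging of its transcripts. C1rl (ENSMUSG00000038527, chr6:124493113-124510643, plus strand), C1ra (ENSMUSG00000055172, chr6:124512405-124523443, plus strand) and C1s1 (ENSMUSG00000038521, chr6:124530345-124542359, minus strand) are neighbours. C4b (ENSMUSG00000073418, chr17:34728380-34743882, minus strand) and Cfb (ENSMUSG00000090231, chr17:34856374-34862518, minus strand) lie in the major histocompatibility complex, and Serping1 (ENSMUSG00000023224) is at chr2:84765387-84775444 on the minus strand.

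The RefSeq promoter table of the same assembly (GRCm38.p6) held entries for C3, C1s1, C1ra and C1rl, which is 4 of the 7 genes. The 250 bases before the annotated start are shown for 3 of them, C3, C1s1 and C1rl, because these hold a match to the motif marked below. The upstream window of C1ra, the other entry of the chromosome 6 cluster, holds no match and is not printed. Capitals mark matches to the C/EBP core TTGCNNAA, a recognition sequence of CCAAT/enhancer-binding proteins, searched on both strands (in C1s1 and C1rl it lies on the opposite strand) in each entry from 250 bases before to 50 bases after the start. The windows are chr17:57228137-57228386 (minus strand) for C3, chr6:124542360-124542609 (minus strand) for C1s1 and chr6:124492863-124493112 (plus strand) for C1rl, each written 5′ to 3′ on the gene's own strand.
C3: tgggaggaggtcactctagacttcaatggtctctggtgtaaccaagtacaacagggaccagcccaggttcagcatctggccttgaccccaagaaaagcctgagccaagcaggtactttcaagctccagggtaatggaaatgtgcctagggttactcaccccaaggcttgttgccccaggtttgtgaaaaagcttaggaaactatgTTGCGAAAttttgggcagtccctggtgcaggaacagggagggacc
C1s1: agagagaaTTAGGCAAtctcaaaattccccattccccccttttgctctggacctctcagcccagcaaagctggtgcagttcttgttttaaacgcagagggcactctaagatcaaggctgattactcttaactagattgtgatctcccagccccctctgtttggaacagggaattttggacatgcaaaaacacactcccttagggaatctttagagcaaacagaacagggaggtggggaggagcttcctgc
C1rl: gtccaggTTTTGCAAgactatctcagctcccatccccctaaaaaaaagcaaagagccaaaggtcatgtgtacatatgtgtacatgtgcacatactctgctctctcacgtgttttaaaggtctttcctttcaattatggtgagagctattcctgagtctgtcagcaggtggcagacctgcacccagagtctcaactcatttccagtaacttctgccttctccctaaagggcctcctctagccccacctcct
The C/EBP core lay at position -45 from the start of C3, at -242 from that of C1s1 and at -243 from that of C1rl. In C1ra it lay after the start, at position 17, and a STAT core (TTCNNNGAA) lay at position 33, which was the only STAT match. A second C1s1 entry, with a start further downstream, held none of the motifs. Among all 32851 promoter entries of the same length, 10.8% held the C/EBP core and 8.3% the STAT core. The NF-kappaB motif and the interferon-stimulated response element (ISRE), held by 8.46% and 3.44% of all entries, had no match in the entries of these genes. The matches describe letters in these windows and were not tested as binding sites.

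Library totals ranged from 13031492 to 17750476 counts. No library repeated another (0 of 66 pairs had identical counts, and the closest pair still differed with a chi-square of 4.74 per degree of freedom). Of 14 macrophage and leukocyte markers, Lyz2, Tyrobp, C1qa, C1qb and C1qc were at 0 counts in all 12 libraries and Adgre1 had no more than 1 count. Ptprc, Cd68, Cd14 and Mrc1 passed the filter. Cd14, a lipopolysaccharide co-receptor gene, was at 32.2 ± 19.5 CPM (SD, n = 3; CPM are counts per unit of library size, scaled by TMM) with DMSO and 14.6 ± 6.78 CPM with the combination (lower when the line was a block, edgeR adjusted p = 0.00332, and 0.233 without it). Cd68, a lysosomal gene, was at 9.04 ± 7.54 CPM and 14.5 ± 8.68 CPM (edgeR adjusted p = 0.00603, higher, with the block and 0.624 without). The summed level of the 14 markers was 25.6 to 89.9 CPM with DMSO and 15.5 to 63.0 CPM with the combination. Within that list the pan-leukocyte gene Ptprc reached 13.6 CPM in A1005 with DMSO and was at or under 0.138 CPM in the other DMSO libraries. A1005 was also the line in which the 7 complement genes were highest, and the part of such cells in their levels was not tested. No endothelial, hepatocyte or adipocyte marker passed the filter, and the summed levels of those lists stayed at or under 0.752, 0.439 and 0.0716 CPM. Of 10 fibroblast and mesenchymal markers 9 were tested, and with the block 6 were higher with the combination (28.6% of all tested genes) and 1 was lower (26.2%), with a median log2 difference of 1.76, and 1.55 unpaired. The 6 were Pdgfra, Pdgfrb, Col1a1, Col1a2, Col3a1 and Dcn, genes of growth factor receptors and of the extracellular matrix, and none of them passed unpaired. Pdgfrb went from 3.98 ± 3.09 CPM to 46.6 ± 47.6 CPM (log2 fold change of 3.32 with the block by edgeR, adjusted p = 6.09e-05, and 0.114 without), and 5 of the 6 were also higher with PD173074 under the block. The list's summed level was 3260 to 5380 CPM with DMSO and 2700 to 9780 CPM with the combination, ranges that overlapped. Col1a1 and Col1a2 stayed at or under 0.754 CPM in A1129 and A1471, so their rise was carried by A1005. Both needed libraries with PD173074, alone or combined, to pass the filter. The 6 genes, and not the list as a whole, were higher with the combination as the complement genes were. Their part in the results was not tested. The mesenchymal filament gene Vim stood at 2890 ± 353 CPM (SD, n = 3) with DMSO, whereas the epithelial genes Epcam and Cdh1 did not pass the filter, Krt5 and Cldn7 were at 0, and the 10 epithelial markers together reached 16.5 to 74.6 CPM with DMSO. Among all marker lists the unpaired test called Mrc1, a macrophage receptor gene at 1.59 ± 1.05 CPM with DMSO (lower with the combination by edgeR, adjusted p = 0.0238, and 0.2 without A1129 or 0.119 without A1471), and the mesenchymal factor gene Twist1 (113 ± 12.6 against 53.2 ± 8.31 CPM, adjusted p = 0.00156, and 0.0698 without A1129 or 0.0577 without A1471).

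C3 carried most of the complement reads and was the gene whose rise passed the unpaired test. With DMSO its level was 471 CPM in A1005, 112 CPM in A1129 and 91.0 CPM in A1471. With Crizotinib it was 377, 126 and 79.4 CPM in the same order of lines. These ranges overlapped throughout. PD173074 gave 1620, 422 and 734 CPM, and the combination gave 3430, 1760 and 1510 CPM. Every combination library lay above every DMSO and every Crizotinib library, and A1005 was the highest line under each treatment. The group means were 225 ± 213 CPM with DMSO, 194 ± 160 CPM with Crizotinib, 925 ± 622 CPM with PD173074 and 2230 ± 1040 CPM with the combination (SD, n = 3).

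The combination raised C3 9.94-fold over DMSO in the unpaired fit, a log2 fold change of 3.31 ± 0.86 (SE), with an adjusted p of 0.0305 by edgeR's quasi-likelihood test. Treating the cell line as a block gave 3.63 ± 0.31 and an adjusted p of 1.24e-05. Against Crizotinib alone, the rise was 3.52 ± 0.86 on the log2 scale without the block (edgeR adjusted p = 0.0252) and 3.75 ± 0.31 with it (adjusted p = 1.08e-05). The unpaired calls needed A1129 and A1471, as did most unpaired calls over all genes. Against DMSO, 88 of 13791 tested genes were called higher without A1129 and 12 of 14021 without A1471, beside 844 of 13836 with all lines. Without A1129 the edgeR adjusted p against DMSO was 0.215, without A1471 it was 0.212, without A1005 it was 0.00653, and it ranged from 1.24e-05 to 0.215 over 14 alternative settings, while the log2 fold change stayed between 3.14 and 4.02. Against Crizotinib the adjusted p was 0.181 without A1129 and 0.207 without A1471, within a range of 1.08e-05 to 0.207. With the line as a block and 1 line left out, the adjusted p against DMSO lay between 0.000168 and 0.0011.

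Each line showed the rise of C3 by itself. The ratio of combination to DMSO was 7.28 in A1005 (95% exact counting interval 7.09 to 7.48), 15.7 in A1129 (14.9 to 16.5) and 16.6 in A1471 (15.7 to 17.6). The rise was thus smallest in A1005, the line that began with the highest level. The intervals cover counting error only, since the libraries carry no molecular identifiers and reads of 1 molecule cannot be recognised, and with 1 library per line and treatment a difference in response between lines could not be tested. In rank by level per kilobase of exon among 13828 genes, C3 moved from 506th in A1005, 2555th in A1129 and 3156th in A1471 with DMSO to 42nd, 77th and 139th with the combination. It then made up 0.347%, 0.183% and 0.153% of all counts in the 3 lines. In bulk RNA, more RNA per cell and more cells that express a gene cannot be told apart.

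**Figure D1:**
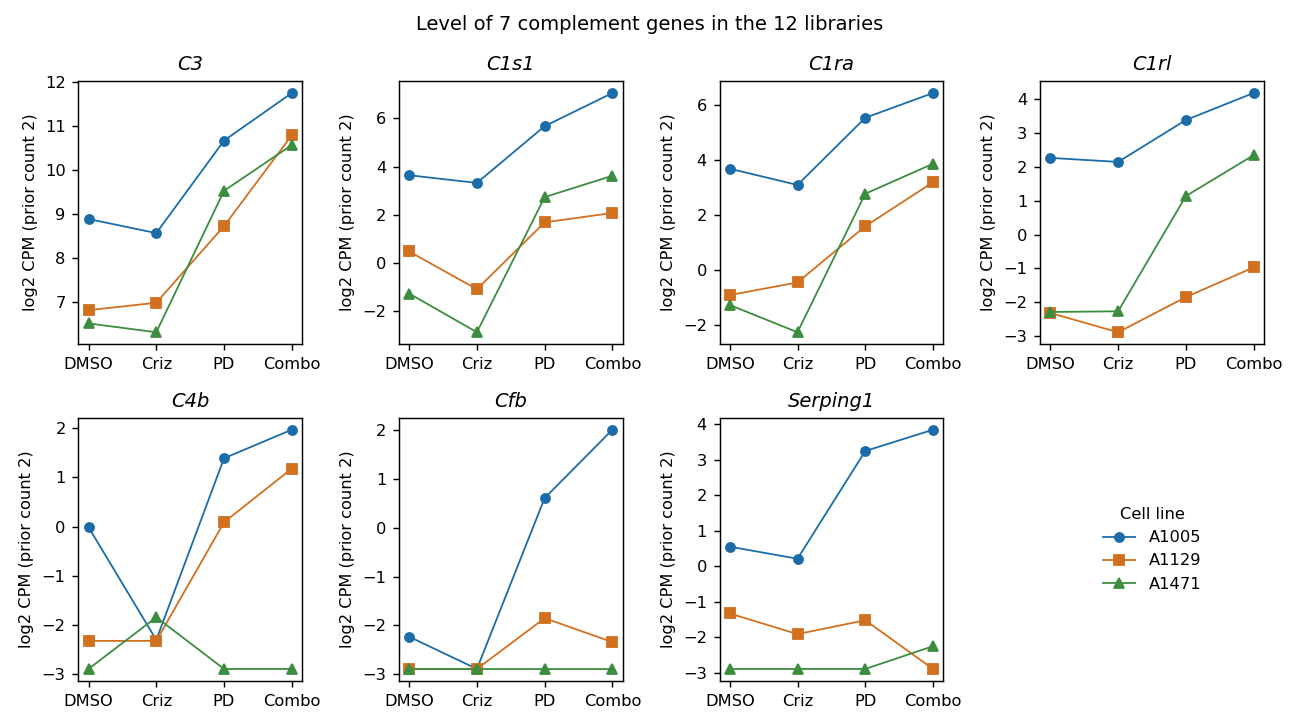
Log2 CPM (prior count 2) of each complement gene in the 12 libraries, with treatment on the x axis (Criz, Crizotinib; PD, PD173074) and 1 line per cell line. C3 rises from 6.51 to 8.88 with DMSO to 10.56 to 11.74 with the combination in the 3 lines, and A1005 is the top line for C3, C1s1, C1ra and C1rl under every treatment.

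PD173074 alone was followed by higher C3 in each line. Its ratio to DMSO was 3.44 in A1005 (counting interval 3.35 to 3.54), 3.75 in A1129 (3.55 to 3.96) and 8.07 in A1471 (7.62 to 8.55). The unpaired log2 fold change of 2.04 ± 0.81 did not pass edgeR's test (adjusted p = 1), and with the line as a block it was 2.25 ± 0.29 with an adjusted p of 0.00734, which rose to 0.122 when A1471 was left out. Over its 14 alternatives the adjusted p ranged from 0.00734 to 1. Adding Crizotinib to PD173074 raised C3 further in each line, by 2.12-fold in A1005, 4.18-fold in A1129 and 2.06-fold in A1471. That step was 1.27 ± 0.79 on the log2 scale without the block (edgeR adjusted p = 0.460) and 1.38 ± 0.28 with it (adjusted p = 0.00414), and without A1129 the blocked adjusted p was 0.0702 (range over alternatives 0.00414 to 0.851). Crizotinib without PD173074 left C3 at a log2 difference of -0.21 ± 0.78 from DMSO (edgeR adjusted p = 1). The combination departed from the sum of both single effects by 1.48 ± 1.11 without the block (adjusted p = 0.839) and by 1.5 ± 0.39 with it (edgeR adjusted p = 0.0309). This last call was lost whichever line was left out, with blocked adjusted p-values of 0.0645 to 0.166 and a range of 0.0309 to 1 over its alternatives.

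The proteases C1s and C1r of the classical pathway were encoded by transcripts at far lower levels. C1s1 stood at 12.3 CPM in A1005, 1.25 CPM in A1129 and 0.276 CPM in A1471 with DMSO. It was at 9.84, 0.330 and 0 CPM with Crizotinib, at 51.1, 3.08 and 6.48 CPM with PD173074, and at 133, 4.07 and 12.1 CPM with the combination. Within each line the order was DMSO, then PD173074, then the combination, yet the groups overlapped because A1005 with DMSO exceeded A1129 and A1471 with the combination. The combination to DMSO ratio was 10.8 in A1005 (counting interval 9.21 to 12.8), 3.26 in A1129 (1.93 to 5.76) and 44.0 in A1471 (16.8 to 163), the last from 4 counts with DMSO and 161 with the combination. Against PD173074 the combination gave 2.61 in A1005 (2.42 to 2.83) and 1.88 in A1471 (1.44 to 2.45), while the interval of 0.887 to 1.99 in A1129 included no change.

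C1ra, the C1r gene, stood at 12.6, 0.395 and 0.276 CPM with DMSO in A1005, A1129 and A1471. It was at 8.34, 0.594 and 0.0719 CPM with Crizotinib, at 45.7, 2.86 and 6.62 CPM with PD173074, and at 85.3, 8.90 and 14.3 CPM with the combination. The combination exceeded PD173074, and PD173074 exceeded DMSO, in each of the 3 lines. Its combination to DMSO ratios were 6.79 in A1005 (counting interval 5.77 to 8.04), 22.6 in A1129 (10.1 to 62.5) and 51.9 in A1471 (19.9 to 192).

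C1rl, the relative of C1r that lies beside C1ra, stood at 4.68 CPM in A1005 and at 1 count each in A1129 and A1471 with DMSO. It was at 18.1, 0.376 and 4.98 CPM with the combination and at 10.3, 0.143 and 2.06 CPM with PD173074. In A1005 the combination to DMSO ratio was 3.86 (2.92 to 5.17). A1471 went from 1 to 66 counts, a ratio of 72.1 with a counting interval of 12.5 to 2890, and A1129 from 1 to 6 counts, where the interval of 0.694 to 263 included no change.

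None of these 3 protease genes passed the unpaired test of the combination against DMSO. The log2 fold changes were 3.44 ± 2.08 for C1s1, 3.04 ± 1.87 for C1ra and 2.28 ± 2.20 for C1rl, with edgeR adjusted p-values of 0.314, 0.326 and 0.553. With the line as a block all 3 passed, at 3.33 ± 0.53, 3.68 ± 0.48 and 2.84 ± 0.61 (edgeR adjusted p = 0.000534, 0.000168 and 0.00303). They still passed with the block when any 1 line was left out, with a highest adjusted p of 0.0142 for C1s1, 0.00675 for C1ra and 0.0228 for C1rl. Over all alternatives the adjusted p ranged from 0.000534 to 0.544 for C1s1, from 0.000168 to 0.577 for C1ra and from 0.00138 to 0.816 for C1rl, and no alternative changed the direction. For PD173074 against DMSO, C1ra passed with the block (log2 fold change 2.47 ± 0.49, edgeR adjusted p = 0.0308) and C1s1 did not (2.35 ± 0.55, adjusted p = 0.0587). The C1ra call was lost with any 1 line left out (blocked adjusted p = 0.069 to 0.144, range over alternatives 0.0308 to 1). Its blocked call for the combination against PD173074 (1.21 ± 0.41, edgeR adjusted p = 0.039) was lost without A1005 (0.0615) and without A1129 (0.212), within a range of 0.0353 to 0.973.

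C4 is the component that C1s cleaves. C4b stood at 11 counts in A1005, 1 in A1129 and 0 in A1471 with DMSO, and at 1, 1 and 2 counts with Crizotinib. PD173074 gave 41, 13 and 0 counts and the combination gave 68, 34 and 0. The combination to DMSO ratio was 4.40 in A1005 (counting interval 2.31 to 9.23) and 32.4 in A1129 (5.43 to 1320), while A1471 had no count in 3 of its 4 libraries. The unpaired log2 fold change for the combination was 2.68 ± 1.80 (edgeR adjusted p = 0.373), and with the block it was 2.79 ± 0.79 (adjusted p = 0.0129), which became 0.155 without A1129. Over its alternatives the adjusted p ranged from 0.011 to 0.743.

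Serping1, which encodes the inhibitor of C1r and C1s, was measurable mainly in A1005. There it had 17 counts with DMSO, 15 with Crizotinib, 154 with PD173074 and 256 with the combination. The combination to DMSO ratio in that line was 10.7 (6.57 to 18.7). In A1129 it had 4, 2, 3 and 0 counts and in A1471 0, 0, 0 and 1 counts under the same treatments, at or near the floor of 3 counts. No fold was formed where both libraries of a pair were at or under this floor. Its call with the block (2.60 ± 0.85 on the log2 scale, edgeR adjusted p = 0.0249, against 3.17 ± 2.58 and 0.474 unpaired) was lost without A1471 (adjusted p = 0.0853). When A1005 was left out Serping1 was no longer tested. Over its alternatives the adjusted p ranged from 0.00161 to 0.885.

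Cfb, the factor B gene of the alternative pathway, was nearly absent from the counts. It had 1 count with DMSO, 0 with Crizotinib, 23 with PD173074 and 70 with the combination in A1005. A1129 had 0, 0, 2 and 1 counts and A1471 had none. In A1005 the ratio of combination to DMSO was 49.8, with a counting interval of 8.66 to 2000. Of its exon bases, 79.5% overlapped Gm20547, an annotated gene on the same strand that overlaps both Cfb and C2 and that had 0 counts in all libraries. Reads that overlap 2 genes can be left uncounted by HTSeq, so the level of Cfb is uncertain, and the neighbouring C2 shares 46.9% of its exon bases with other genes.

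Counted together, 1 of the 6 tested complement genes, C3, rose with the combination over DMSO in the unpaired fit, where 6.10% of all tested genes were called higher. With the cell line as a block all 6 rose, where 28.6% of all genes were called higher. C1ra, C1rl, Serping1 and C4b needed libraries with PD173074, alone or combined, to pass the filter. The filter therefore favoured a rise in these genes over DMSO and over Crizotinib. C3 and C1s1 did not need those libraries. The median log2 fold change of the 6 genes, those favoured included, was 3.10 unpaired and 3.09 with the block, beside 0.02 and 0.03 over all tested genes. For the combination against Crizotinib, 1 of 6 was called without the block (5.40% of all genes higher) and 6 of 6 with it (27.4%). In this comparison the blocked C4b call was lost without A1005 (adjusted p = 0.0766) or A1129 (0.0532) and that of Serping1 without A1471 (0.0502), over ranges of 0.00392 to 0.56 and 0.0012 to 0.859. For PD173074 against DMSO, 0 of 6 passed unpaired by edgeR, where 0% of all genes were called in either direction, and 1 of the 6 had an unadjusted p below 0.05. The block called 2 of 6 higher (1.62% of all genes), and all 6 had an unadjusted p below 0.05.

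For the combination against PD173074, 0 of 6 were called unpaired by edgeR (0.838% of all genes higher, and 0 of the 6 with an unadjusted p below 0.05), and 2 of 6 with the block (19.6%). For the departure from additivity, 0 of 6 passed unpaired by edgeR (0.00723% of all genes higher, and 0 of the 6 with an unadjusted p below 0.05) and 1 of 6 with the block (5.46%). Crizotinib against DMSO gave 0 of 6 without and with the block by edgeR, where 0% of all tested genes passed in either fit and none of the 6 had an unadjusted p below 0.05. DESeq2 called 0 of the complement genes in this comparison as well, and 1 gene among all. The combination was above DMSO in each of the 3 lines for 4 of the 7 genes (C3, C1s1, C1ra and C1rl), as it was for 34.0% of all tested genes. The same 4 genes were above DMSO in each line with PD173074, as were 24.1% of all tested genes. These comparisons share the DMSO, the PD173074 or the combination libraries and are not independent of each other.

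**Figure D2:**
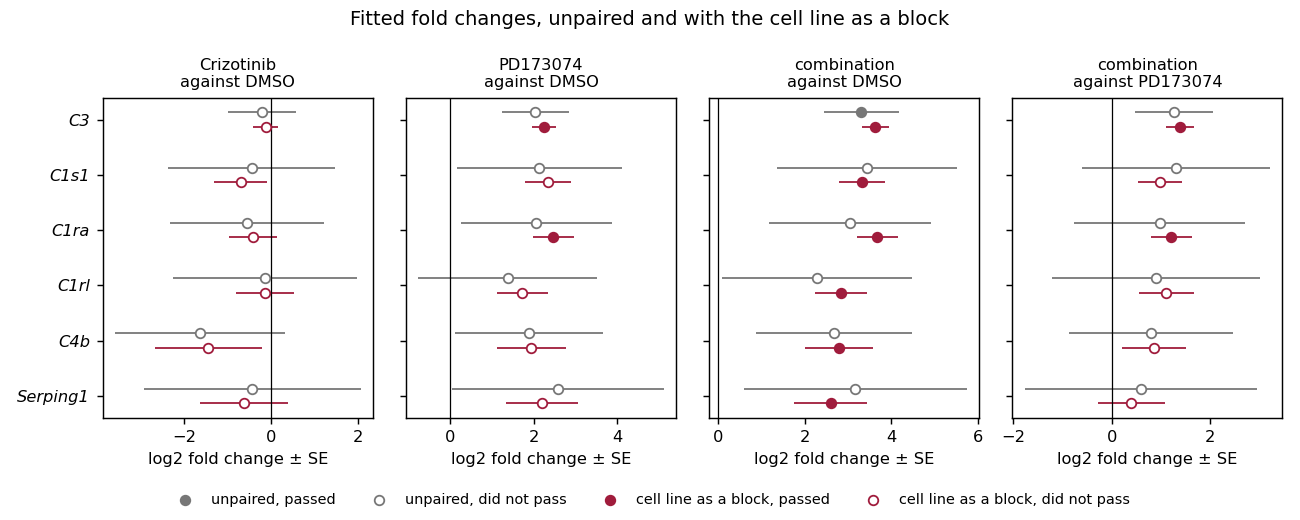
Fitted log2 fold change ± SE on the x axis for the 6 tested complement genes on the y axis in 4 comparisons, without (grey) and with (red) the cell line as a block; filled points passed an adjusted p of 0.05. The point estimates lie close together, and the SE of C1s1 for the combination against DMSO falls from 2.08 to 0.53 with the block.

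The levels of these genes also differed between the cell lines. In a test of line with treatment in the fit, all 6 tested genes differed between lines (edgeR adjusted p = 1.17e-05 to 0.00212), as did 73.9% of all genes, and A1005 was highest for each. The 4 libraries of a line differ in treatment. These p-values therefore measure the spread between libraries of these 3 lines and not between tumours in general. Averaged over treatments, A1005 exceeded A1129 and A1471 by 3.11-fold and 3.29-fold for C3, by 21.6-fold and 13-fold for C1s1, and by 15.4-fold and 10.2-fold for C1ra. C1rl was 73.0-fold higher in A1005 than in A1129 but 7.29-fold higher than in A1471, whereas C4b was 2.44-fold higher than in A1129 and 38.3-fold higher than in A1471. In these averages the low line differed between the genes, being A1129 for C1rl, C1s1 and C1ra and A1471 for C4b, Serping1 and, by a small margin, C3. It also changed with treatment. C1s1 and C1ra were lowest in A1471 with DMSO (both 0.276 CPM) and with Crizotinib (0 and 0.0719 CPM). C1rl had 1 count in A1129 and 1 in A1471 with DMSO.

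**Figure D3:**
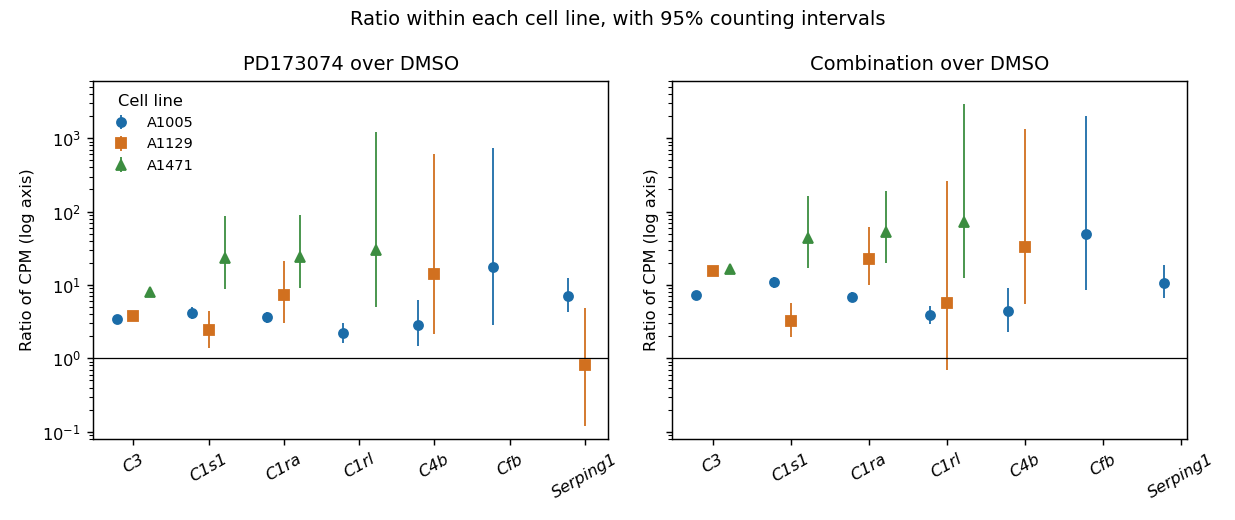
Ratio of CPM on a log axis for PD173074 and for the combination over DMSO within each cell line, with 95% exact counting intervals; pairs with both libraries at or under 3 counts or with a count of 0 are not drawn. For C3 the combination ratios are 7.28, 15.7 and 16.6, and the widest intervals belong to genes with a single count with DMSO.

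Per kilobase of exon, C3 was the highest of the 7 genes in all 12 libraries. With the combination it stood at 667 CPM per kb in A1005, 342 in A1129 and 294 in A1471. C1s1 followed at 42.7, 1.30 and 3.88 CPM per kb and C1ra at 28.6, 2.99 and 4.81 CPM per kb, and the order of these 2 changed with the line. C1rl reached 6.0, 0.125 and 1.65 CPM per kb and Serping1 6.12, 0 and 0.0325 CPM per kb, with overlapping ranges. Cfb reached 1.38 CPM per kb and C4b 0.664 CPM per kb at most. Between neighbours in this order, the ranges over lines overlapped except between C3 and the genes after it. C3 held between 93.0% (Clopper-Pearson 95% interval 92.8 to 93.2) and 99.6% (99.1 to 99.9) of the counts of the 7 genes in each library.

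Centred on each line, the 12 libraries showed the 4 genes C3, C1ra, C1s1 and C1rl moving alike on the log2 CPM scale. Pearson's r was 0.982 between C3 and C1ra, 0.921 between C3 and C1s1, 0.922 between C3 and C1rl, 0.955 between C1s1 and C1ra and 0.963 between C1s1 and C1rl. C4b, Cfb and Serping1 lay further from C3, at r of 0.6, 0.536 and 0.343, with counts near the floor in most libraries. The 12 points share their libraries and depth and come from 4 treatments of the same 3 lines, so the values are descriptive.

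Among the 9612 genes that averaged 3 or more on the log2 CPM scale, those with a pattern most like C3 were Bmf (r = 0.995), a pro-apoptotic BH3-only gene, Parp9 (0.994) and the death receptor gene Fas (0.992). C1ra was closest to Dtx3l (0.991), the gene of an E3 ligase that partners Parp9, then to Parp9 (0.986) and Psd3 (0.985). C1s1 was closest to Ccn2 (0.993) and to the interferon-inducible GTPase genes Gbp2 (0.989) and Gbp3 (0.987), and C1rl to the peptide transporter gene Tap2 (0.99), Epb41l2 (0.989) and Gbp9 (0.987). C4b was closest to Arhgap24 (0.938), Lamtor3 (0.914) and Kng2 (0.911), Serping1 to Furin (0.938), Trmt1l (0.924) and Clu (0.922), and Cfb to Trmt1l (0.967), Il1rn (0.965) and Dnajb11 (0.956). These last 3 complement genes had few counts outside A1005, and some of the genes nearest to them, such as Trmt1l and Lamtor3, had log2 differences of only 0.14 and 0.12 between the combination and DMSO (edgeR adjusted p = 0.72 and 0.619).

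The rest of the complement system was sparse. Of 17 other genes of initiation and amplification, 7 were tested and 7 had no count in any library, among them all C1q chains, the mannose-binding lectins Mbl1 and Mbl2, and Cfd, which encodes factor D. None of the 7 tested passed the unpaired test for the combination, where 6.10% of all tested genes were called higher and 8.28% lower. With the block 3 rose (Masp1, C1rb and C1s2) and 1 fell (Fcna, the ficolin A gene, by 1.38 on the log2 scale). Masp1, C1rb and C1s2 needed libraries with PD173074, alone or combined, to pass the filter, so the filter favoured a rise in them. The shares over all tested genes with the block were 28.6% higher and 26.2% lower. The median of the 7 was 0.34 unpaired and 0.36 with the block. Masp1, which encodes a protease of the lectin pathway and was singled out after its values were seen, went from 14.5, 0.197 and 0.138 CPM with DMSO to 169, 7.39 and 11.8 CPM with the combination in the same 3 lines. Its log2 fold change was 3.67 ± 2.16 unpaired (edgeR adjusted p = 0.302) and 4.06 ± 0.39 with the block (adjusted p = 2.84e-05), and without A1005 it also passed unpaired (5.78, adjusted p = 0.0116). Over its alternatives the adjusted p ranged from 2.84e-05 to 0.534.

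C1rb and C1s2, the tandem copies of C1ra and C1s1, were low, at no more than 4.0 and 9.34 CPM with the combination. C1rb reached 3.30 ± 0.52 and C1s2 2.55 ± 0.58 on the log2 scale with the block (edgeR adjusted p = 0.000484 and 0.00389), and neither passed unpaired (adjusted p = 0.215 and 0.319). C1ra shared 50.8% of its 50-base exon windows with C1rb or Gm18840 and C1s1 shared 24.3% with C1s2, so reads of the copies could not be told apart in those stretches. C1s1 also overlapped the antisense gene Gm16567 over 18.4% of its exon bases, and that gene had at most 7 counts. C4b shared 35.2% of its windows with C4a, which had 3 to 21 counts in each library and no called change (0.33 ± 0.71, adjusted p = 0.823, and 0.28 with the block). C2, the partner of C4, had 0 to 11 counts and differed by -0.76 ± 0.98 on the log2 scale, which did not pass (edgeR adjusted p = 0.676). C3, C1rl and Serping1 shared no window with another gene.

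Among the soluble regulators, Clu, an abundant secreted chaperone that also binds terminal complement, went from 8.20 to 82.7 CPM in A1005 and from 180 to 104 CPM in A1129 and did not pass in either fit (by edgeR, adjusted p = 0.982 without the block and 0.253 with it).

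Among 10 membrane regulators 4 were tested, and Cr1l, the gene of the rodent regulator Crry, was the most abundant at 41.3 ± 5.62 CPM with DMSO and 44.4 ± 5.37 CPM with the combination (log2 difference 0.10 ± 0.20, edgeR adjusted p = 0.794). With the block only Csmd1 rose (28.6% of all tested genes), and its counts came from A1005. It needed libraries with PD173074, alone or combined, to pass the filter. The terminal pathway had 1 tested gene of 7 (C8g, log2 difference 1.04 ± 0.8), with C6, C8a and C8b at 0 counts. Of 9 receptor genes 2 were tested, and with the block Itgb2, a leukocyte integrin gene, was lower (-1.33 on the log2 scale, edgeR adjusted p = 0.0301, and 0.466 unpaired), beside 26.2% of all tested genes. Neither the C3a receptor gene C3ar1 nor the C5a receptor genes C5ar1 and C5ar2 passed the filter. The median log2 difference of the tested genes was 1.03 for the membrane regulators and -0.41 for the receptors without the block.

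**Figure D4:**
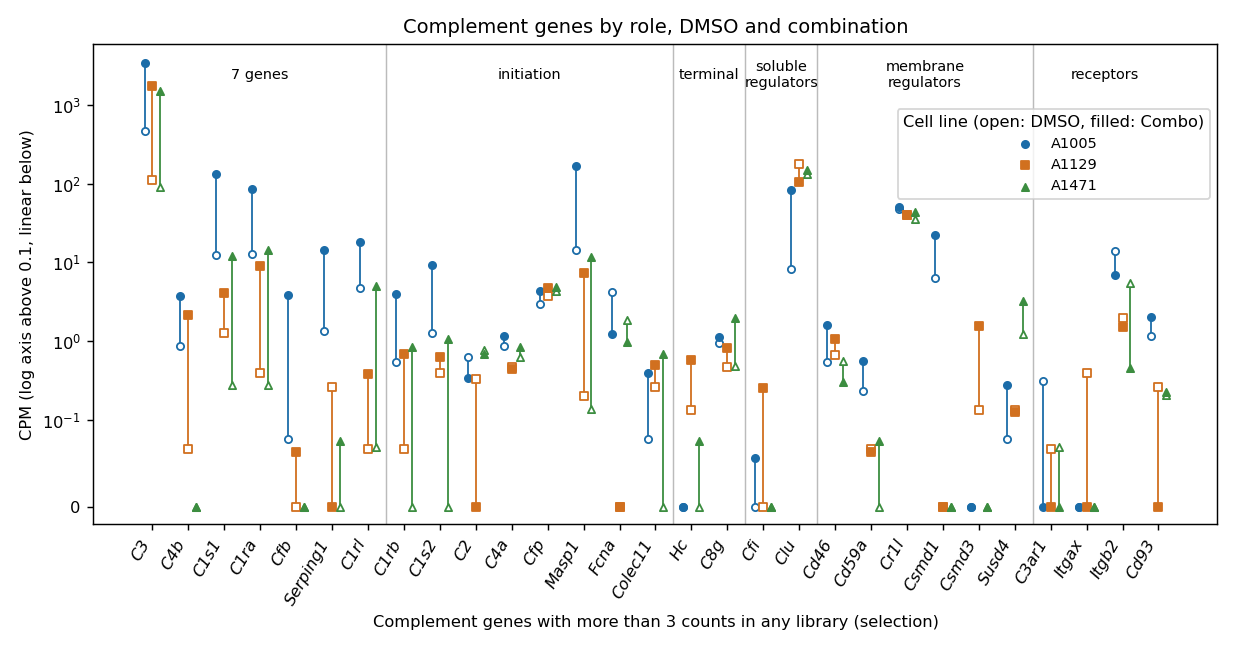
CPM with DMSO (open symbols) and with the combination (filled symbols) in each cell line for listed complement genes with more than 3 counts in any library, ordered by role, on an axis that is logarithmic above 0.1 CPM and linear below. C3 is the highest gene with the combination in each line while Clu lies above it with DMSO in A1129 and A1471, Masp1 is higher with the combination in each line, and Cr1l lies at 40.6 CPM with DMSO and 39.6 CPM with the combination in A1129.

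Of 29 genes for transcription factors, cytokine receptors and their signals that are known to act on complement genes, 27 were tested. Without the block 5 rose and 1 fell with the combination, where 6.10% of all tested genes were called higher and 8.28% lower. Relb, an NF-kappaB subunit gene, went from 29.0 ± 5.0 to 68.5 ± 6.13 CPM (log2 fold change 1.24 ± 0.16, edgeR adjusted p = 0.00135). Ifngr2, an interferon gamma receptor chain, rose by 1.33 ± 0.21 (adjusted p = 0.00313), Ifnar1, a type I interferon receptor chain, by 0.80 ± 0.16 (adjusted p = 0.0107), Stat2, a transcription factor of interferon signalling, by 1.84 ± 0.41 (adjusted p = 0.0177) and Il6st, the shared receptor chain of the interleukin 6 family, by 1.09 ± 0.28 (adjusted p = 0.0284). Socs1, a feedback inhibitor of cytokine signalling, fell by 1.30 ± 0.39 on the log2 scale (edgeR adjusted p = 0.0495). Without A1471 each of the 6 calls was lost, with adjusted p-values of 0.0707 for Relb, 0.0883 for Ifngr2, 0.174 for Ifnar1, 0.0887 for Stat2, 0.0782 for Il6st and 0.34 for Socs1. Without A1129 those of Ifnar1 (0.152), Stat2 (0.207), Il6st (0.176) and Socs1 (0.196) were lost, and without A1005 that of Il6st (0.109). Most unpaired calls over all genes were also lost without A1471 or A1129. In either direction, 1990 of 13836 tested genes were called with all lines, 120 of 14021 without A1471 and 324 of 13791 without A1129. Without A1005 it was 2021 of 13568. The losses are therefore not particular to these 6 genes. With the block all 6 calls held whichever line was left out.

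With the block, 18 of the 27 genes rose and 2 fell, where 28.6% of all tested genes were called higher and 26.2% lower, and the list's median log2 fold change was 0.81 unpaired and 0.82 with the block. Irf1, an interferon-induced transcription factor chosen after its values were seen, went from 62.9, 34.5 and 70.3 CPM with DMSO to 207, 81.5 and 233 CPM with the combination, with 0.0553 as its adjusted p by edgeR when unpaired and 2.02e-05 with the block (range 2.02e-05 to 0.296). Il6 itself did not pass the filter, and Hnf4a, a hepatocyte factor, had no count. Of the 3 listed genes of C/EBP factors, Cebpa went from 10.2 ± 2.27 to 22.9 ± 14.2 CPM and passed with the block (1.03 on the log2 scale, edgeR adjusted p = 0.00206) but not without it (adjusted p = 0.141). Cebpb and Cebpd did not pass in either fit (log2 differences of -0.26 ± 0.7 and -0.44 ± 1.59 unpaired).

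Acute phase genes, which the liver switches on along with C3 in inflammation, were mostly higher with the combination. Of 16 listed genes 13 were tested and 1 rose without the block (6.10% of all tested genes), Cp (ceruloplasmin, a copper-carrying ferroxidase), from 736 ± 248 to 2820 ± 1120 CPM (log2 fold change 1.94 ± 0.51, edgeR adjusted p = 0.0334), a call that was lost without A1129 (0.138) or A1471 (0.299). With the block 12 rose (28.6% of all tested genes) and 1 fell (Lcn2). Saa1, Saa2, Orm2 and Serpina3g were at or under 0.468 CPM in every DMSO and Crizotinib library. They passed the filter only through libraries with PD173074, alone or combined, so the filter favoured a rise in them. Orm1, Serpina3n and Lrg1 also needed these libraries to pass, and the filter favoured a rise in them too. With DMSO and Crizotinib, Orm1 and Serpina3n were at or under 0.132 CPM outside A1005. In those groups Lrg1 exceeded 0.468 CPM only in A1129 with Crizotinib (0.924 CPM). The median log2 fold change of the 13 genes, these included, was 4.0 unpaired and 3.83 with the block. It stayed at 4.0 with Saa2, which had no count with DMSO, set to its bound of at least 90.6-fold. Saa3, chosen after its values were seen, differed widely between lines and went from 11.6 to 1010 CPM in A1005, from 25.1 to 167 CPM in A1129 and from 0.138 to 4.53 CPM in A1471 (by edgeR, adjusted p = 0.175 in the unpaired fit and 0.00186 with the block, over a range of 0.000321 to 0.529).

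**Figure D5:**
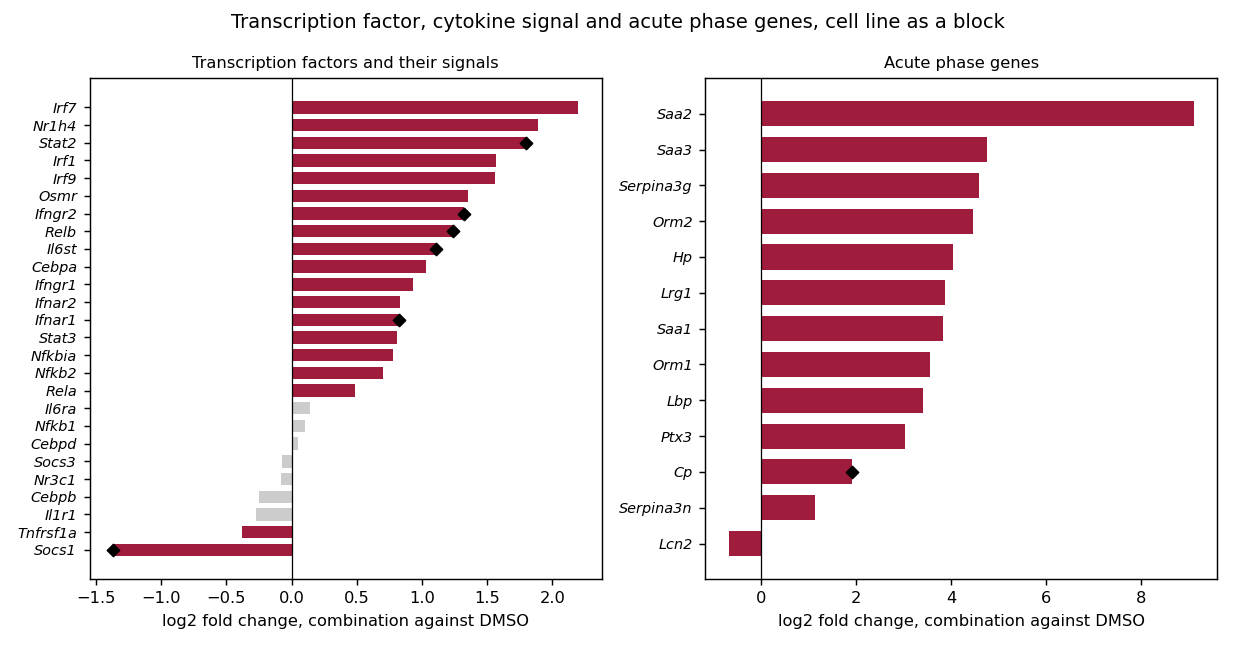
Log2 fold change of the combination against DMSO with the cell line as a block for tested genes of the signalling list (left) and the acute phase list (right); red bars passed an adjusted p of 0.05 with the block, grey bars did not, and black diamonds mark genes that also passed unpaired. The 6 diamonds on the left are Stat2, Ifngr2, Relb, Il6st, Ifnar1 and Socs1, and the bar of Saa2 rests on 0 counts with DMSO and depends on the prior count.

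The genomic neighbours of the 7 genes were called in both directions. Within 100 kb of them lay 65 other annotated genes, of which 31 were tested. Without the block 1 was called higher (Neu1, a lysosomal sialidase gene near Cfb) and 1 lower (Selenoh, a selenoprotein gene near Serping1), both named after their values were seen. With the block 7 were higher and 8 lower, over a range of -1.31 to 3.30, and the highest was C1rb. These shares are near the 28.6% higher and 26.2% lower over all tested genes, so the counts are no result about the neighbourhood.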

How the data were processed

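The authors deposited the read count of each Ensembl gene in each library as 1 table, not normalized. The submitters' processing notes name bcl2fastq, STAR, HTSeq and the build mm10, with no versions, and the published methods compared groups without pairing. Strand use and annotation release are not given in the sources used here. Treatment and line came from the sample labels.

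Low genes were removed with filterByExpr (at least 10 counts, at least 15 in total), and counts were scaled by TMM and tested with edgeR 4.0.16 (R 4.3.3) in 1 quasi-likelihood fit over 12 libraries, with Benjamini-Hochberg adjustment over all 13836 genes and a threshold of 0.05. Lines pair the libraries: deviations from the treatment means correlated by 0.766 or more in all 18 same-line pairs, so a fit with the line as a block (the replicate block, which called 6 members for the combination) stands beside the unpaired fit. CPM used TMM library sizes, and log2 CPM a prior count of 2. Ratios within lines used exact binomial intervals (95%, scipy 1.17.1). Exon lengths, overlaps and coordinates came from the GENCODE vM21 annotation of GRCm38. DESeq2 1.42.0, limma-voom (limma 3.58.1), other scalings and filters and leaving out each line were alternatives. The fits were tested on simulated data.

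The 7 genes and all lists were chosen with earlier results of these data known. Genes were named when they were members, their paralogs or C2, passed the unpaired test within a list, or were the 3 closest in pattern to a member. Masp1, Irf1, Saa1, Saa2, Saa3, Orm1, Orm2, Serpina3g, Serpina3n, Lrg1, Lcn2, Fcna, Csmd1, Clu, Cr1l, C8g, Cebpa, Cebpb, Cebpd, Ptprc, Cd14, Cd68, Pdgfrb, Itgb2, Vim, Neu1 and Selenoh were chosen after their values were seen. Some listed genes are not reported here. The table was used whole, with no column left out.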

Additional observations from a re-analysis of the deposited data

Results flagged for a closer look

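The difference between the effect of PD173074 on C3 with Crizotinib present and its effect without was 1.5 on the log2 scale with the cell line as a block, a test of the difference itself (edgeR adjusted p = 0.0309, and 0.839 unpaired). It was listed because the effect of 1 inhibitor differed with the other.

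The ratio of C3 with Crizotinib to DMSO lay on different sides of 1 in the 3 lines, beyond counting error. Counting error leaves out variation between libraries, and with the line as a block the log2 difference was -0.12 ± 0.28 (SE). The ratio to DMSO was 1.13 in A1129 (1.05 to 1.2), against 0.801 in A1005 (0.772 to 0.831) and 0.872 in A1471 (0.804 to 0.945). With 1 library per line and treatment this difference was not tested.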

How the results depend on the processing

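The number of complement genes called was the result that moved most. For the combination against DMSO it was 1 in the unpaired fit, 6 with the replicate block, 0 when only the libraries of the groups compared were fitted, and 0 to 2 when a line was left out unpaired. The 6 include C1ra, C1rl, Serping1 and C4b, in which the filter favoured a rise. The number called higher over all tested genes moved as well. It was 844 of 13836 unpaired, 3953 with the block and 205 of 12868 with only the groups compared. Unpaired, it was 879 of 13568 without A1005, 88 of 13791 without A1129 and 12 of 14021 without A1471. Against Crizotinib the number of complement genes called was 1, with 6 under the replicate block and 0 to 2 without a line. Over all tested genes 747 were called higher, with 3797 under the block and 13 to 798 without a line. The block called 2 rather than 0 for PD173074 against DMSO, 2 rather than 0 for the combination against PD173074, and 1 rather than 0 for the departure from additivity. In the same order it called 1.62%, 19.6% and 5.46% of all tested genes higher. With the block and A1005, A1129 or A1471 left out, settings chosen after seeing the data, the counts were 5, 6 and 6 against DMSO, 4, 6 and 6 against Crizotinib, and 1, 2 and 0 for PD173074. These were not the same genes: Cfb passed the filter once A1129 or A1471 was left out and was called against DMSO (adjusted p = 0.018 and 0.00949) and against Crizotinib (0.0128 and 0.00674), while C4b without A1129 and Serping1 without A1471 were not. For the combination against PD173074 the counts were 1, 0 and 2, and for the departure 0 each. In the same order of lines left out, the block called 3503 of 13568, 2875 of 13791 and 2712 of 14021 tested genes higher against DMSO. It called 3319, 2950 and 2571 higher against Crizotinib and 44, 110 and 4 for PD173074. For the combination against PD173074 it called 2166, 818 and 1266 higher, and for the departure 484, 49 and 44. The number of complement genes that differed between lines was 6, and 1 where at least 10 counts were required in every library, because only C3 was then tested.

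Directions changed in 9 of 661 alternative values of single genes, none of them called. Without A1005 the Crizotinib effect became 0.02 for C3, 1.42 for C4b and 0.00 for C1ra (0.01, 1.54 and 0.06 with the block), and the C4b departure became -0.23 (-0.4 with the block). With each line left out in turn these values ranged from -0.31 to 0.02, from -2.65 to 1.42, from -0.62 to 0.00 and, for the departure, from -0.23 to 3.42. With limma-voom Serping1 was at -0.19 for the combination against PD173074. Of the rest, 542 kept their side of the threshold, 78 passed newly and 32 no longer passed. The cause was not tested. Counts at or under 3 for C4b, Cfb, Serping1 and C1rl in A1129 or A1471 limit what these libraries can show.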
